A study of Mus musculus with 3 samples.

Results

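Pulmonary surfactant is the lipid and protein film that keeps alveoli open during expiration. The genes described here encode its 4 proteins and the machinery of the lamellar body, the lysosome-related organelle in which alveolar type 2 (AT2) cells store surfactant before they secrete it. The set has 9 members among the 28692 features of the count tables: *Sftpa1*, *Sftpb*, *Sftpc*, *Sftpd*, *Abca3*, *Slc34a2*, *Lamp3*, *Napsa*, and *Ctsh*. They were chosen by symbol and not by a rule on measured values, but earlier results of these data were known at the choice. All 9 were found once in each table, and all 9 passed the low-count filter of the tests.

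Single-cell RNA-Seq was done on dissociated whole lung of 3 wild-type C57BL/6 pups (mice 2, 3, and 4), kept in room air (RA) from P1 and taken at P14. The pups form 1 condition with no injury or mutant group, so the question asked of the data was in which cells of the normal P14 lung the surfactant genes were expressed, and how evenly. Each pup gave 1 library, the mice are the replicates, and values are given for mice 2, 3, and 4 in that order or as mean ± SD over the 3 mice. Whole-lung suspensions hold only the cells that survive dissociation, and the cell types below were rebuilt from marker genes, because no cell annotation was used.

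The tables hold 9644 cell barcodes (3034, 3135, and 3475 per mouse) with 22476491 to 25192427 unique molecular identifiers (UMIs, tags that count captured transcripts) per library and a median of 4224 to 4895 UMIs per cell. After cells with fewer than 200 genes or over 20% mitochondrial UMIs were left out, 7642 cells remained, whereas the submitters' design text gives 5677. Pairs of libraries shared 2 to 5 barcodes. A level is the number of UMIs of a gene per 1000000 UMIs summed over the cells of a type in a mouse (CPM). In 3′ libraries a transcript gives 1 UMI whatever its length, so CPM values of different genes were set side by side without a length correction. The 9 members and 5 lists of related genes were kept out of the genes used for clustering and out of the naming markers, so the members did not define the cell types in which they were measured.

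The members act at different steps. *Sftpa1* and *Sftpd* encode the collectins SP-A and SP-D, water-soluble lectins that bind microbes in the airspace. *Sftpb* and *Sftpc* encode SP-B and SP-C, the small hydrophobic proteins that let phospholipid spread at the air-liquid surface. *Abca3* encodes the pump that loads phospholipid into lamellar bodies, *Slc34a2* a sodium-phosphate cotransporter of the AT2 apical membrane, and *Lamp3* a membrane protein of lamellar bodies that is also known from mature dendritic cells (DCs). *Napsa* (napsin A) and *Ctsh* (cathepsin H) encode proteases that trim the SP-B and SP-C precursors, and cathepsin H is also a general lysosomal aminopeptidase.

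On GRCm38 with GENCODE M21, *Sftpa1* (ENSMUSG00000021789, chr14:41131782-41136452) and *Sftpd* (ENSMUSG00000021795, chr14:41172214-41185149) lie near each other on opposite strands. *Sftpc* (ENSMUSG00000022097) is at chr14:70520949-70524081 and *Sftpb* (ENSMUSG00000056370) at chr6:72304610-72314371. *Abca3* (ENSMUSG00000024130) spans chr17:24351950-24410201, *Slc34a2* (ENSMUSG00000029188) chr5:53038081-53071664, and *Lamp3* (ENSMUSG00000041247) chr16:19653378-19706375. *Napsa* (ENSMUSG00000002204) is at chr7:44572380-44586862 and *Ctsh* (ENSMUSG00000032359) at chr9:90054152-90076089. *Abca3*, *Slc34a2*, and *Napsa* each overlap a transcript of the opposite strand. The partner of *Slc34a2*, *Gm17182*, had 290 UMIs in all cells and that of *Napsa*, *Gm15396*, had 25, against 129689 and 56256 for the members themselves.

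Of the 9 members, 5 had a start-site sequence in the RefSeq promoter table (GRCm38.p6): *Sftpa1*, *Sftpb*, *Abca3*, *Slc34a2*, and *Lamp3*. The 250 bases before the start are printed for the 2 surfactant protein genes among them, because their windows hold letters known from lung promoters. Capitals mark CTCAAG, the core that the lung factor NKX2-1 is known to bind, and TATAAA, the TATA box.

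*Sftpa1*, chr14:41131538-41131787, plus strand: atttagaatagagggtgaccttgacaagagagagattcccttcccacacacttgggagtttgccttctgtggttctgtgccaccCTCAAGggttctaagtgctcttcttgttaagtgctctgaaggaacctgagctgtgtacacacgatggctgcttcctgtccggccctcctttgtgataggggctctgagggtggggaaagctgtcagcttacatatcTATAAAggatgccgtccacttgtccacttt

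*Sftpb*, chr6:72304360-72304609, plus strand: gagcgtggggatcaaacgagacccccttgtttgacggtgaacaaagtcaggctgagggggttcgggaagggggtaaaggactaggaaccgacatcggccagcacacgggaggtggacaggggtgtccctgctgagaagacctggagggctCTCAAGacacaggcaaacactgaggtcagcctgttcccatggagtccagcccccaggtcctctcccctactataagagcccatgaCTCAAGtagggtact

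Both strands were searched for CTCAAG, for TATAAA, and for TTGCNNAA, a form of the C/EBP site. *Sftpa1* had CTCAAG once, beginning at position -166 from the start, and TATAAA at -30. *Sftpb* had CTCAAG at -100 and -15. *Slc34a2* had a palindromic TTGCNNAA match at -48, read on both strands at the same place, and neither other motif. None of the 3 motifs was in the windows of *Abca3* and *Lamp3*. Among all 32851 promoters of that length in the table, 13.3% held CTCAAG, 12.4% TATAAA, and 9.56% TTGCNNAA, so single matches are common.

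Most surfactant UMIs lay in AT2-like cells. These numbered 1039 (386, 259, and 394 per mouse), without the 22 cells of their cluster that met the background rule given further on, and had a median of 16219 UMIs. *Cxcl15*, an AT2 chemokine that is not a member, was detected in 99.8% of them. The members together made up 22.6%, 20.3%, and 21.6% of all UMIs of these cells. Of the members' UMIs in all kept cells, the 1039 cells held 92.8%, 91.0%, and 88.0% (90.6% ± 2.42), and the whole cluster of 1061 cells, with those 22, held 94.5%, 93.2%, and 91.1% (92.9% ± 1.74).

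*Sftpc* was by far the most abundant member, with 186700, 164800, and 176800 CPM (176100 ± 10960) in AT2-like cells. More than 16% of all UMIs of these cells in each mouse were therefore from 1 gene, with a median of 2855 *Sftpc* UMIs per cell. *Sftpb*, the other hydrophobic protein, had 9222, 8908, and 8772 CPM (8967 ± 230.7). The 3 mice lay close together for both genes, and mouse 3 had the lowest *Sftpc* level.

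Of the collectins, *Sftpa1* had 14090, 12550, and 13530 CPM (13390 ± 777.7) in AT2-like cells and *Sftpd* had 3352, 2750, and 2933 CPM (3012 ± 308.6). *Sftpa1* thus stood above *Sftpb* in every mouse, and mouse 3 was the lowest for both collectins. Of the membrane proteins, *Slc34a2* had 6433, 7116, and 7103 CPM (6884 ± 391.0), *Lamp3* 1421, 1546, and 1495 CPM (1487 ± 62.9), and *Abca3* 1393, 1364, and 1421 CPM (1393 ± 28.5). *Slc34a2* and *Lamp3* were lowest in mouse 2, in contrast to *Sftpc* and the collectins. The proteases were at 2757, 2503, and 2529 CPM for *Napsa* (2596 ± 139.6) and at 997.2, 952.5, and 898.4 CPM for *Ctsh* (949.4 ± 49.5). In the order from *Sftpc* to *Ctsh*, *Sftpd* and *Napsa* overlapped between mice and *Lamp3* and *Abca3* met at 1421 CPM, and the other neighbors did not overlap.

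**Figure D1:**
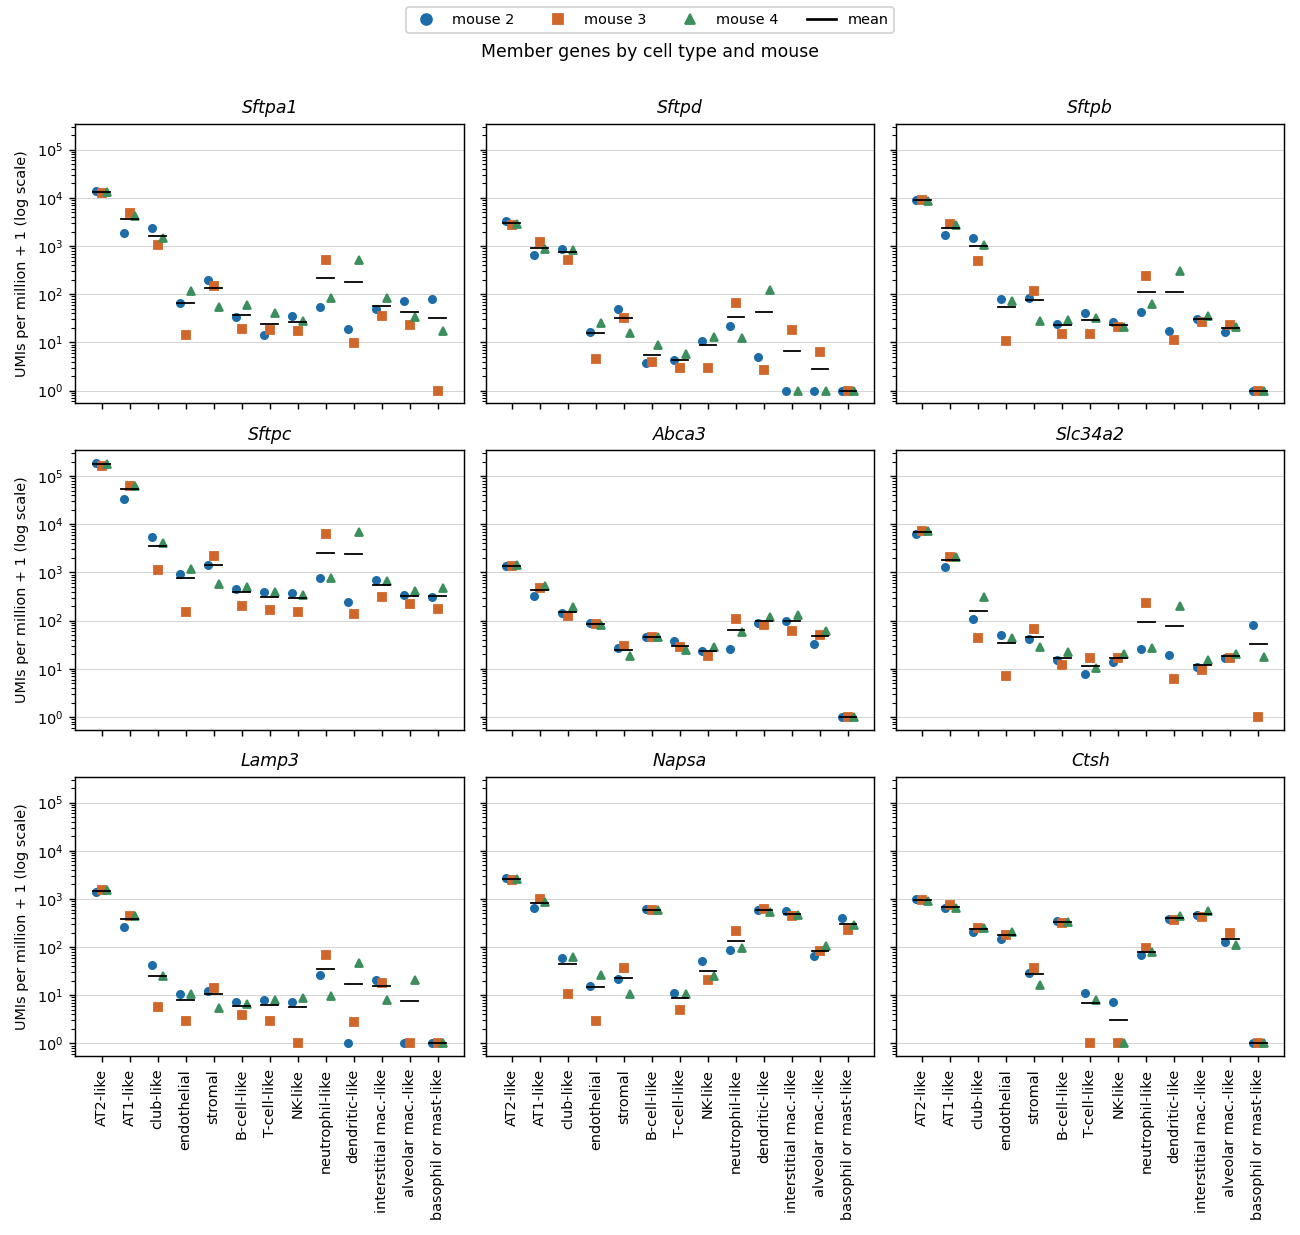
Level of each member in each cell type, as CPM plus 1 on a log axis. Each point is 1 mouse and each horizontal line the mean of the 3. AT2-like cells stand highest for all 9 members, while *Napsa* and *Ctsh* also have RNA in several immune types, with 577.1 to 610.4 and 312.3 to 348.3 CPM in B-cell-like cells.

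All 9 members were found in nearly every AT2-like cell, with 0 to 11 of 1039 cells lacking a given member, but they were not equally even. Each gene was expressed per 10000 UMIs of its cell, and the 95th percentile over the cells was divided by the 5th. This ratio was 1.86 for *Sftpc*, 2.31 for *Sftpb*, and 2.71 for *Slc34a2*. It was 3.19 for *Napsa*, 3.45 for *Lamp3*, and 3.46 for *Abca3*. The collectins varied more, with 5.77 for *Sftpa1* and 6.75 for *Sftpd*, and *Ctsh* the most, with 10.9. Counting noise widens the ratio at low counts, and the medians were 12 UMIs per cell for *Ctsh*, 23 for *Abca3*, 41 for *Sftpd* and *Napsa*, and 190 for *Sftpa1*. *Sftpd* and *Napsa* had the same median count but ratios of 6.75 and 3.19, and *Sftpa1* exceeded *Slc34a2*, with a median of 111 UMIs, in both count and spread.

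**Figure D2:**
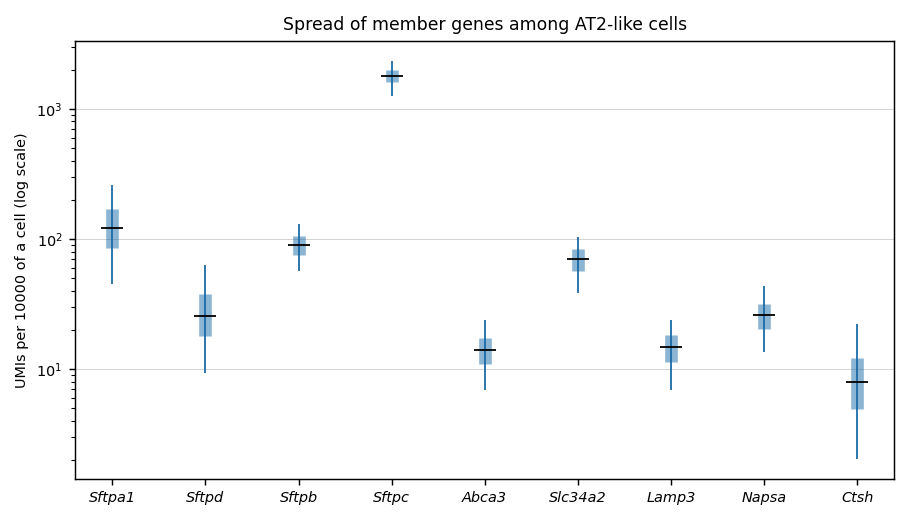
Spread of each member over the 1039 AT2-like cells, as UMIs per 10000 UMIs of the cell on a log axis, with a thin line from the 5th to the 95th percentile, a thick bar over the middle quartiles, and a black mark at the median. *Sftpc* spans 1259 to 2342, a ratio of 1.86, and *Ctsh* spans 2.05 to 22.3, a ratio of 10.9.

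The members did not all vary together from cell to cell. Correlations were computed over the 1039 AT2-like cells on the log ratio of each member to the cell's UMIs outside the set. They are descriptive, because the cells share 3 libraries, their depth, and the same denominator. *Sftpa1* and *Sftpd* varied together (Pearson's r = 0.53 over all cells, and 0.58, 0.53, and 0.47 within mice 2, 3, and 4), and *Sftpd* varied with *Ctsh* (r = 0.48, and 0.49, 0.44, and 0.49 within mice). *Abca3* varied with *Slc34a2* (r = 0.49, and 0.59, 0.42, and 0.46 within mice) and with *Sftpb* (r = 0.43). *Sftpc* was closest to *Napsa* (r = 0.52) and *Sftpb* (r = 0.46). *Sftpd* and *Ctsh* had low or negative correlations with *Sftpb*, *Abca3*, *Slc34a2*, and *Lamp3*, from 0.04 (*Sftpd* with *Sftpb*) to -0.22 (*Slc34a2* with *Ctsh*). The values of *Ctsh* with *Slc34a2* and *Lamp3* (-0.15) and of *Sftpd* with *Slc34a2* (-0.12) were negative within every mouse. *Sftpa1* lay between: its r was 0.40 with *Sftpc*, 0.23 with *Sftpb*, and 0.17 with *Lamp3*, against 0.25 with *Ctsh*, and it was -0.07 with *Abca3* and 0.03 with *Slc34a2*.

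AT2-like cells with RNA of the cell division genes *Top2a*, *Mki67*, *Birc5*, and *Ube2c* (at least 3 UMIs in sum) numbered 34 (13, 14, and 7 per mouse), with a median of 24865.5 UMIs against 16167 in the other 1005. In these cells 4 members had lower levels in each mouse than in any mouse's other AT2-like cells, 2 had higher levels, and 3 overlapped. No test was run on 7 to 14 cells per mouse. Among 3447 genes of at least 50 CPM, 19.8% were lower without overlap and 36.6% higher, so the split of the members is given as a description.

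*Slc34a2* had 3342, 4563, and 4901 CPM in the dividing cells against 6595, 7347, and 7165 CPM in the others. *Sftpb* had 5878, 7252, and 5670 CPM against 9397, 9057, and 8859 CPM. The lipid pump *Abca3* had 754, 1012, and 1008 CPM against 1427, 1396, and 1433 CPM. *Sftpc*, the fourth lower member, differed least in proportion, with 144500, 141000, and 142900 CPM against 188900, 166900, and 177700 CPM. In contrast, *Ctsh* had 1545, 1480, and 1693 CPM in the dividing cells against 968.5, 904.9, and 876.1 CPM, and *Sftpd* had 4204, 3353, and 3810 CPM against 3307, 2695, and 2909 CPM. *Sftpd* and *Ctsh* were also a pair that varied together across all AT2-like cells. *Sftpa1*, *Lamp3*, and *Napsa* overlapped between the dividing and the other cells. The marked doublets were kept, and their part in the higher UMI count of the dividing cells was not tested.

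**Figure D3:**
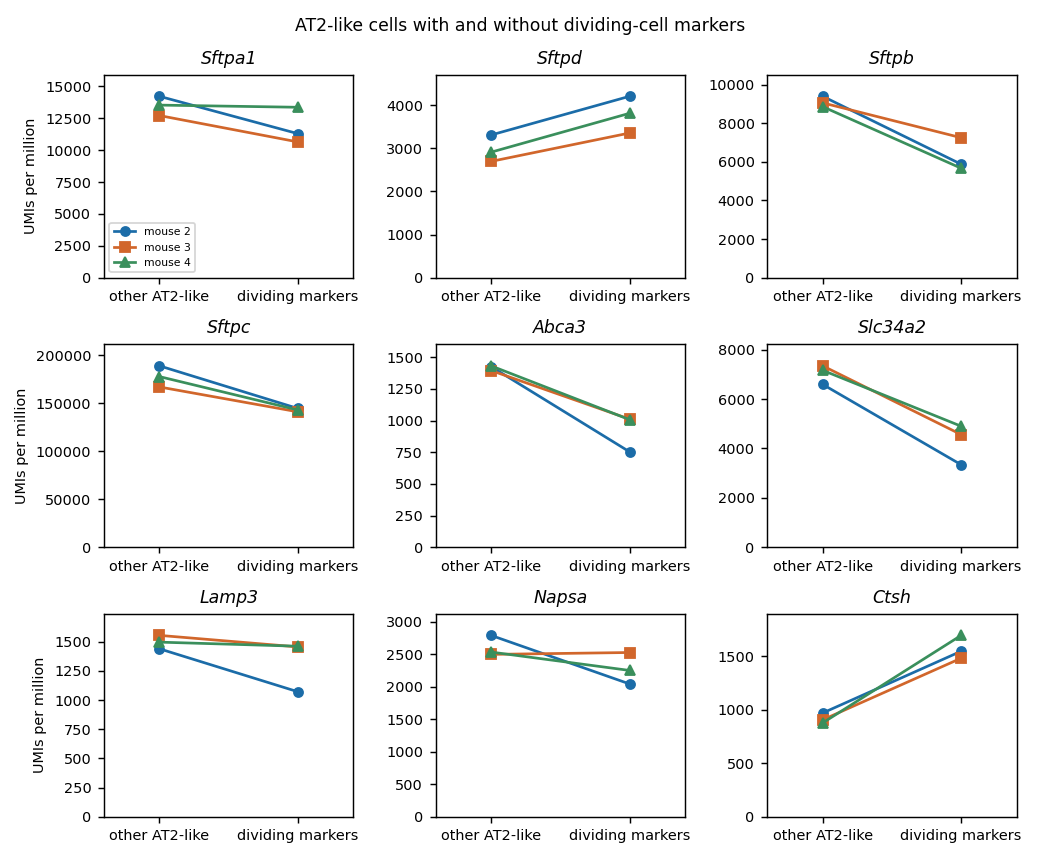
Level of each member (CPM, on a linear axis from 0) in AT2-like cells with and without RNA of cell division genes. Each point is 1 mouse, and lines join the values of the same mouse. *Sftpb*, *Sftpc*, *Abca3*, and *Slc34a2* are lower and *Sftpd* and *Ctsh* higher in the dividing cells, without overlap.

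The AT2-like cells were next compared with the other cells of the alveolar epithelium, the flat alveolar type 1 (AT1) cells that AT2 cells renew. The 166 AT1-like cells formed 2 clusters that differed in the members. The larger, of 130 cells led by *Ndnf* and *Igfbp2*, had a median of 6243 UMIs. The smaller, of 36 cells led by *Igfbp2* and *Akap5*, had a median of 35883 UMIs, AT2 as its second best type by markers, and 5.56% of cells marked as doublets against 0.769% in the larger. Both shares rest on very few cells, and mouse 4, where fewer doublets were marked, held 21 of the 36 cells.

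The 2 clusters did not overlap for *Sftpc*. The smaller had 84950, 100400, and 101500 *Sftpc* CPM and a median of 3278 UMIs per cell, against 2855 in AT2-like cells. The larger had 4341, 619.3, and 9787 *Sftpc* CPM but a median of 3 UMIs per cell, and 88.0% of its *Sftpc* UMIs came from the 5% of cells that held most. The part of doublets in the smaller cluster was not tested. Counts, folds, and the order of types that rest on AT1-like cells are given with and without it, and CPM values of AT1-like cells are over both clusters unless 1 cluster is named.

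With both clusters, 8 of 9 members were higher in AT2-like than in AT1-like cells (edgeR quasi-likelihood test, adjusted p under 0.05, 11841 genes), against 20.2% of all genes tested, and 6 passed with DESeq2. Over all genes, 2390 were higher and 1639 lower, against 1096 and 2920 with library size alone as the scale, where 6 members passed and the median of all genes moved from 0.16 to -0.19, and 2000 and 2075 with DESeq2. The members' median log2 fold change was 2.14, against 0.16 over all genes. *Sftpa1* had 1880, 4845, and 4202 CPM in AT1-like cells, lower than in AT2-like cells by 2.28 on the log2 scale (SE 0.79, adjusted p = 0.0249 by edgeR). *Abca3* had 327.3, 463.9, and 524.0 CPM (log2 fold change 2.06, SE 0.30, adjusted p = 1.7e-06). *Lamp3* (2.36, SE 0.50), *Slc34a2* (2.31, SE 0.68), *Sftpb* (2.29, SE 0.70), *Sftpd* (2.14, SE 0.61), and *Napsa* (2.06, SE 0.42) passed as well.

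*Sftpc* did not pass, with 34130, 62360, and 61800 CPM in AT1-like cells and a log2 fold change of 2.14 (SE 0.91, edgeR adjusted p = 0.0683). Without the smaller AT1-like cluster its log2 fold change was 5.57 (SE 1.14, adjusted p = 0.000174) and all 9 members passed, against 19.2% of all genes. The count also moved when single libraries were left out, as did the number of all genes called higher. Without mouse 2, 3 members passed (1247 of 11508 genes). Without mouse 3, 9 passed (2074 of 12034), and without mouse 4, 7 passed (1311 of 12380).

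*Ctsh* was the exception in size. It had 653.4, 759.9, and 634.1 CPM in AT1-like cells, and the log2 fold change of AT2-like over AT1-like cells was 0.88 (SE 0.24, edgeR adjusted p = 0.00453). Without the smaller cluster it was 1.06 (SE 0.25, adjusted p = 0.000975), whereas the other 8 members had 3.60 (*Abca3*) to 5.88 (*Lamp3*). In the larger AT1-like cluster alone, *Ctsh* had 715.9, 530.1, and 595.8 CPM and a median of 3 UMIs per cell, and only 25.9% of its UMIs came from the top 5% of cells. *Ctsh* RNA was therefore spread over AT1-like cells, unlike that of *Sftpc*. Over 16 alternatives its log2 fold change ranged from 0.48, with library size alone as the scale, to 1.06, and it did not pass in 4 of them, among these the fits without mouse 2 and without mouse 4.

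**Figure D4:**
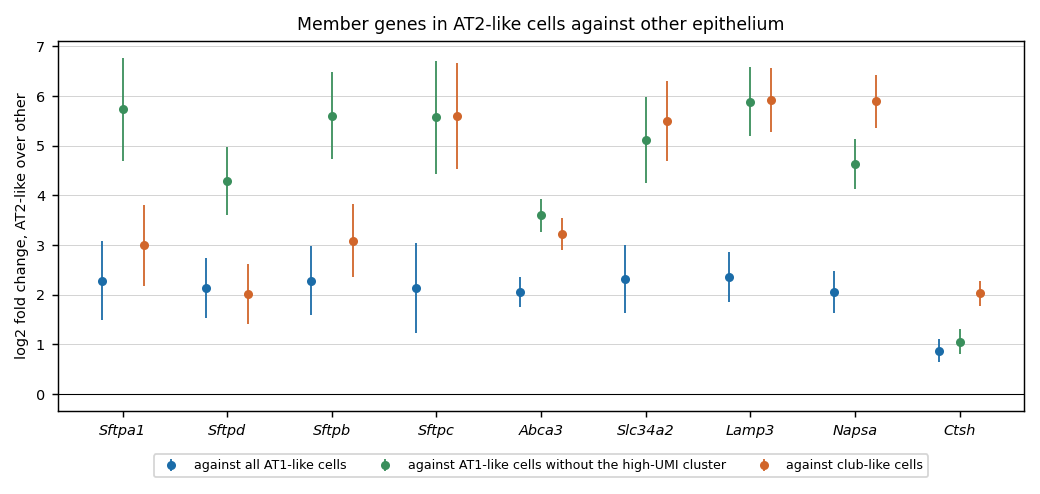
Log2 fold change of each member in AT2-like cells over AT1-like cells, with and without the cluster of high UMI counts, and over club-like cells (edgeR). Bars are standard errors. *Ctsh* lies lowest against AT1-like cells, at 0.88 and 1.06, and against club-like cells the members range from 2.02 to 5.92.

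Club-like cells, the secretory cells of the airways (*Scgb1a1* in 97.7% of cells), lay below AT2-like cells by unlike amounts for different members. They numbered 44 (12, 13, and 19 per mouse) with a median of 35758 UMIs, and 11.4% were marked as doublets. All 9 members were higher in AT2-like cells (edgeR, adjusted p under 0.05), against 22.0% of all genes. DESeq2 called 8 members, with 1546 genes higher and 2547 lower over all genes, against 2604 and 1814 by edgeR. The members' median log2 fold change was 3.21, against 0.20 over all genes.

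*Sftpd* had 862.5, 516.8, and 825.3 CPM in club-like cells, a median of 15.5 UMIs per cell, and a log2 fold change of AT2-like over club-like cells of 2.02 (SE 0.61, edgeR adjusted p = 0.00847). *Ctsh* was close to it, with 206.6, 249.6, and 253.4 CPM and a log2 fold change of 2.03 (SE 0.25, adjusted p = 8.15e-08). *Sftpa1* had 2391, 1050, and 1446 CPM (log2 fold change 2.99, SE 0.82), and *Sftpb* had 1481, 483.0, and 1075 CPM (3.09, SE 0.73). *Abca3* had 144.5, 122.4, and 186.5 CPM, a median of 5 UMIs per cell, and a log2 fold change of 3.21 (SE 0.32). At the other end of the folds, *Slc34a2* (5.49, SE 0.80), *Sftpc* (5.59, SE 1.06), *Napsa* (5.89, SE 0.53), and *Lamp3* (5.92, SE 0.65) were at medians of 0 to 7 UMIs per club-like cell. By mean level, however, *Sftpc* was the highest member in club-like cells, at 3481 CPM against 1629 CPM for *Sftpa1*. For *Lamp3*, 82.6% of the UMIs of club-like cells came from the top 5% of cells.

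The proportions of the members to *Sftpc* differed between club-like and AT2-like cells. For 1000 *Sftpc* UMIs, club-like cells had 470 of *Sftpa1* (76.0 in AT2-like cells), 291 of *Sftpb* (50.6), 209 of *Sftpd* (17.2), and 42.4 of *Abca3* (7.86). *Ctsh* was at 66.5 (5.35). These 5 ratios were above the AT2-like range in every mouse, and the share of all genes with such a ratio was not computed. *Sftpc* itself was lower in club-like cells by 5.59 on the log2 scale, against 0.20 for the median of all genes. Any gene that fell less than *Sftpc* therefore has a higher ratio. *Slc34a2*, at 41.8 (38.6), ranged from 20.1 to 78.2 between mice, and *Lamp3*, at 6.92 (8.34), and *Napsa*, at 12.2 (14.7), overlapped AT2-like cells between mice, as *Slc34a2* did.

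Club-like cells also held RNA of ciliated cells, of which no separate cluster formed. In 25 of the 44, ciliated markers summed to at least 10 UMIs. The 19 cells with fewer had medians of 33 *Sftpd*, 38 *Sftpb*, and 13 *Sftpa1* UMIs per cell, against 2, 1, and 1 in the 25 (median depths of 39405 and 30356 UMIs). *Ctsh*, in contrast, had medians of 6 and 9, and *Sftpc* of 7 and 8. Pooled *Sftpd* levels were nearer to each other, at 887.0 and 585.7 CPM, so a few of the 25 cells carried many UMIs.

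**Figure D5:**
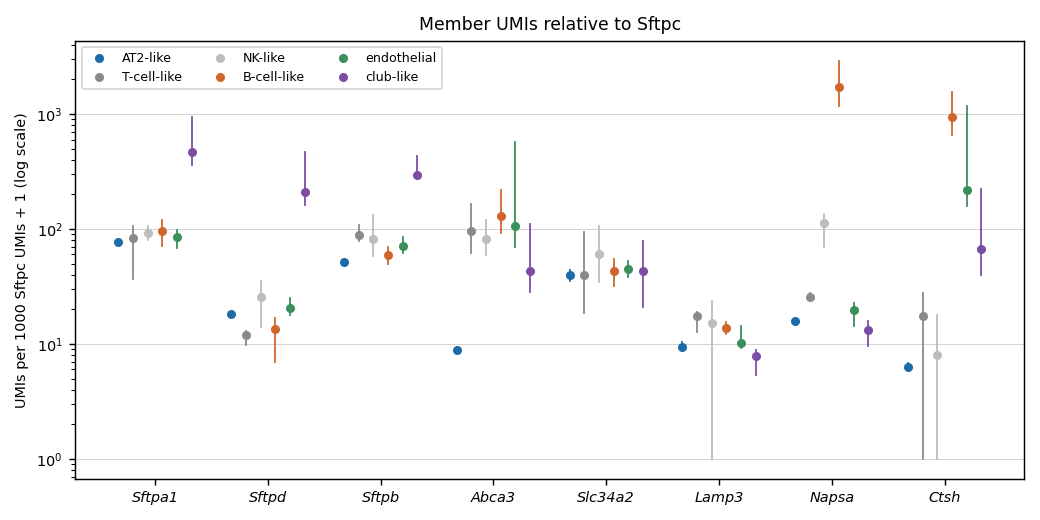
UMIs of each member for 1000 *Sftpc* UMIs in each cell type, plus 1 on a log axis. Points are the value over the UMIs of all 3 mice together and lines run from the lowest to the highest mouse. In B-cell-like cells *Napsa* and *Ctsh* are at 1714 and 939 against 14.7 and 5.35 in AT2-like cells. In T-cell-like cells the lines of *Slc34a2*, *Sftpa1*, and *Ctsh* span the AT2-like value.

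Free RNA released by broken cells can enter the droplets of other cells, so levels outside AT2-like cells were compared with a background. The background was B cells, taken as the 1866 cells with at least 3 UMIs of *Cd79a* and *Cd79b*, the B cell receptor chains. Most of these (1777) lay in B-cell-like clusters, where *Sftpc* averaged 1.5 UMIs per cell. The other 89, of which 22 lay in the AT2-like cluster, held 97.3% of the *Sftpc* UMIs of the background, and 24.7% of them were marked as doublets against 0.506% of the 1777. By this definition *Sftpc* averaged 52.4 UMIs per background cell with a median of 1. Counts of members against the background are therefore also given with the cells of B-cell-like clusters alone.

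In AT1-like cells 6 of 9 members were above the background as defined, against 27.5% of all genes, and 8 of 9 above B-cell-like clusters, against 33.0%. A member was counted only if its adjusted p was under 0.05 and its UMIs per cell were higher in every mouse, and the shares of all genes use the adjusted p and the direction alone. Without the smaller AT1-like cluster, 1 member was above the background as defined (26.2%), and 5 were above B-cell-like clusters when marked doublets were left out as well (30.5%). In club-like cells 0 of 9 members passed against the background as defined (25.7% of all genes; 1 member at an unadjusted p under 0.05, 0 with DESeq2), and 1, *Sftpd*, passed with the mouse as a block. Against B-cell-like clusters 7 of 9 passed (32.6%), with *Sftpd* at a log2 fold change of 7.78, *Sftpb* at 5.98, and *Sftpa1* at 5.89, and the remaining members were the proteases *Napsa* and *Ctsh*.

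Outside the epithelium 0 of 9 members were above the background as defined in any type tested by edgeR, and 0 at an unadjusted p under 0.05 or with DESeq2. The types were alveolar macrophage-like (14.2% of all genes), interstitial macrophage-like (11.0%), and dendritic-like cells (18.9%), ECs (29.9%), and stromal cells (33.5%). By adjusted p, 9 members were lower than this background in alveolar macrophage-like cells (2243 of 11841 genes), ECs (3895), and stromal cells (4111). In interstitial macrophage-like (1266) and dendritic-like cells (2367) 5 were lower. The background itself held member UMIs, among them *Napsa* and *Ctsh* of B-cell-like cells, so a count of 0 does not show absence. Against B-cell-like clusters the counts of higher members were 0 in alveolar macrophage-like cells (16.5%), 0 in interstitial macrophage-like cells (14.1%), 4 in dendritic-like cells (22.5%), 2 in ECs (36.0%), and 4 in stromal cells (39.1%). In ECs and stromal cells the members' counts were near or under the share of all genes.

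In B-cell-like cells some members were out of proportion to *Sftpc*, so T-cell-like cells were added as a further reference after the data had been seen. The 200 T-cell-like cells (median 5794.5 UMIs) had a median of 1 *Sftpc* UMI. Over all 200 they had 365 *Sftpc* UMIs and 4 to 35 UMIs of each other member, so their ratios are rough. For 1000 *Sftpc* UMIs they had 82.2 of *Sftpa1* (76.0 in AT2-like cells) and 38.4 of *Slc34a2* (38.6), but the latter rests on 14 UMIs and ranged from 17.7 to 93.0 between mice. *Sftpd*, at 11.0, was below the 17.2 of AT2-like cells. The others were above AT2-like cells over the mice together, with 87.7 of *Sftpb* (50.6), 24.7 of *Napsa* (14.7), 16.4 of *Lamp3* (8.34), 16.4 of *Ctsh* (5.35), and, most of all, 95.9 of *Abca3* (7.86). The value of *Ctsh* rests on 6 UMIs and ranged from 0 to 26.6 between mice, across that of AT2-like cells. In B-cell-like cells (1784 cells, median 3960.5 UMIs) *Sftpa1* was at 95.2 and *Slc34a2* at 42.3, but *Abca3* was at 129, *Ctsh* at 939, and *Napsa* at 1714.

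*Napsa* also had RNA in several immune types. B-cell-like cells had 610.4, 589.8, and 577.1 *Napsa* CPM, and a UMI was detected in 83.9% of them against 4.96% of T-cell-like cells. At 1000 UMIs per cell the shares were 42.5% and 0.803%. Against T-cell-like cells, with 10.2, 3.89, and 9.40 CPM, the background cells of B-cell-like clusters were higher by 6.50 on the log2 scale (SE 0.62, edgeR adjusted p = 2.16e-11). Of the 9 members, 2 passed this comparison, *Napsa* and *Ctsh* (6.22, SE 0.40), against 13.9% of all genes.

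Dendritic-like cells had 589.2, 628.8, and 525.3 *Napsa* CPM and interstitial macrophage-like cells 561.9, 442.6, and 461.1 CPM. The name of the latter rests on the whole cluster: *Cx3cr1* was detected in 68.1% of its cells. The markers *C1qa*, *C1qb*, *C1qc*, and *Ms4a7* were detected in only 18.6% (*Ms4a7*) to 21.2% (*C1qb*). Monocyte was its second best type by markers. Dendritic-like cells overlapped both B-cell-like and interstitial macrophage-like cells, and the latter lay below B-cell-like cells. Basophil or mast-like cells followed with 393.6, 221.6, and 281.1 CPM, where 0 of 44 cells had a UMI of *Ctsh* or *Abca3*. For cells with a UMI at this depth, which can be fewer than cells that express the gene, this allows a share of up to 6.82%. The AT2-like cluster nevertheless held 82.3% of all *Napsa* UMIs on average and B-cell-like clusters 8.89%. The 3 genes whose levels over the 38 sums per mouse and type ran most alike to *Napsa* were *H2-Eb1* (r = 0.77), *Cd74* (r = 0.77), and *H2-DMb1* (r = 0.75), all of MHC class II antigen presentation. The genes most like the surfactant proteins were mostly other members and markers used to name AT2-like cells.

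*Ctsh* had the lowest share in AT2-like cells of the 9 members: the AT2-like cluster held 66.2% of its UMIs on average, B-cell-like clusters 10.5%, and ECs 6.65%. B-cell-like cells had 348.3, 312.3, and 323.6 *Ctsh* CPM, dendritic-like cells 388.1, 368.7, and 435.7 CPM, and interstitial macrophage-like cells 453.5, 425.3, and 552.0 CPM. T-cell-like cells had 10.2, 0, and 7.05 CPM. Alveolar macrophage-like cells, at 125.6, 198.6, and 111.8 CPM, lay below interstitial macrophage-like cells in each mouse.

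The ECs were divided in their *Ctsh*. The cluster led by *Slc6a2* and *Vwf* (105 cells) had 691.9, 752.2, and 1288 CPM, with a UMI in 84.7% of cells, and the cluster led by *Gja5* and *Cxcl12* (143 cells) had 349.6, 398.5, and 424.9 CPM. The clusters led by *Scn7a* and *Pcdh17* (555 cells) and by *Car4* and *Kdr* (135 cells) were at 6.69, 17.3, and 19.1 CPM and at 5.56, 0, and 4.46 CPM. No 2 of the 4 clusters overlapped, but the last 2 lay near the floor. The cluster led by *Car4* and *Kdr* had 2 *Ctsh* UMIs in all. T-cell-like cells, at 0 to 10.2 CPM, overlapped both, so a difference between these 2 clusters was not shown. *Gja5* is known from arteries, *Vwf* from larger vessels and veins, and *Car4* from alveolar capillaries. By markers the best type of the cluster of highest *Ctsh* was lymphatic, and *Ccl21a* and *Mmrn1*, known from lymphatic ECs, were among its leading genes. Only 4 of its 105 cells had at least 3 UMIs of the lymphatic markers *Prox1*, *Mmrn1*, *Ccl21a*, and *Flt4*, and *Ctsh* was at 721.0, 766.5, and 1431 CPM in the other 101.

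*Abca3* had low but measurable RNA in several types. ECs had 89.3, 85.5, and 80.4 CPM against 37.3, 27.2, and 23.5 CPM in T-cell-like cells, and a UMI was found in 47.1% of ECs (median 7600 UMIs) and 14.5% of T-cell-like cells. At 1000 UMIs per cell the shares were 8.15% and 3.21%. Dendritic-like cells had 88.5, 79.3, and 118.8 CPM and interstitial macrophage-like cells 98.6, 60.8, and 132.8 CPM. The interstitial macrophage-like cells had a median of only 1968 UMIs, so few UMIs give a high CPM. Per cell they had 0.29, 0.20, and 0.43 *Abca3* UMIs. Background cells of B-cell-like clusters had 0.20, 0.19, and 0.20, and ECs 0.83, 0.97, and 0.79. The opposite-strand transcripts at *Abca3* were not listed in the tables, so their part in these reads could not be measured.

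Against T-cell-like cells, 9 of 9 members were higher in AT1-like cells (25.2% of all genes), 8 without the smaller cluster (24.8%), and 7 when marked doublets were also left out (25.8%). The count was 8 of 9 in club-like cells, all but *Lamp3* (24.6%). Alveolar macrophage-like cells had 2, *Napsa* (log2 fold change 3.64, SE 0.88) and *Ctsh* (5.04, SE 0.52), against 13% of all genes. Interstitial macrophage-like cells had 3, *Abca3* (1.69, SE 0.54), *Napsa* (5.93, SE 0.72), and *Ctsh* (6.48, SE 0.46), against 11.5%, and *Abca3* did not pass without mouse 4. ECs had 2, *Abca3* (1.47, SE 0.42) and *Ctsh* (5.03, SE 0.46), against 25.6%, a similar share, and 1 of them, *Ctsh*, passed without mouse 4.

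Dendritic-like cells had 5 members above T-cell-like cells, against 15.9% of all genes. *Napsa* (6.51, SE 0.68), *Ctsh* (6.53, SE 0.44), and *Abca3* (1.94, SE 0.44) stayed when marked doublets were left out, and *Sftpc* and *Sftpd* did not. The *Sftpc* level of dendritic-like cells was 6775 CPM at its highest mouse and 139.5 CPM at its lowest, and without mouse 4 the log2 fold change of *Sftpc* was -0.28. Stromal cells had 4 (29.5%), of which 1, *Ctsh* (2.42, SE 0.54), passed without marked doublets, and 1 member passed without mouse 2 or without mouse 3. In the 10 dendritic-like cells with markers of mature DCs (2, 2, and 6 per mouse), 0 *Lamp3* UMIs were counted, and so few cells set no tight limit.

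Compared as whole types, AT2-like cells had the highest level of all 9 members and overlapped no other type. The share of all genes with this pattern was not computed, so the count is a description. The EC cluster led by *Slc6a2* and *Vwf*, taken alone, overlapped AT2-like cells for *Ctsh* and stood above them in its highest mouse. AT1-like cells came next when both clusters were counted, but this place rested on the 36 cells of the smaller cluster for 6 of the 9. With the larger cluster alone, club-like cells came second for *Sftpa1*, *Sftpb*, *Sftpd*, and *Abca3*. *Sftpa1* had a mean of 1629 CPM in club-like cells against 316.6 CPM in that cluster, and *Sftpd* 734.9 against 199.1 CPM, both without overlap. *Sftpb* (1013 against 231.3 CPM) and *Abca3* (151.1 against 147.7 CPM) overlapped. B-cell-like cells came second for *Napsa*, with 592.4 CPM against 135.1 CPM in the larger AT1-like cluster, and neutrophil-like cells for *Lamp3*, with 33.5 against 26.5 CPM. These 2 overlapped for *Lamp3*, and the neutrophil-like values of 24.9, 67.1, and 8.68 CPM rest on 6, 35, and 3 UMIs. In mouse 3 neutrophil-like cells also had 6165 *Sftpc* CPM, against 758.3 and 757.8 CPM in mice 2 and 4. Their median was 2117 UMIs per cell, and the part of free RNA in their *Lamp3* level was not tested. AT1-like cells kept the second place for *Sftpc*, *Slc34a2*, and *Ctsh*, each overlapping the next type. Below AT1-like cells of both clusters, club-like cells came next for *Sftpa1*, *Sftpb*, *Sftpc*, *Sftpd*, *Abca3*, and *Slc34a2*. For *Sftpc*, all types from club-like cells down to NK-like cells overlapped their next neighbor. The place below AT1-like cells was held by B-cell-like cells for *Napsa*, by interstitial macrophage-like cells for *Ctsh*, and by neutrophil-like cells for *Lamp3*, where neutrophil-like and club-like cells overlapped.

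Levels over the 38 sums per mouse and type were compared with those of 11840 other genes (Pearson's r on log2 of CPM plus 1, descriptive, since the sums share 3 mice and a few epithelial sums set most of the range). *Sftpa1* was most like *Sftpb* (r = 0.97), *Slc34a2* (0.95), and *Ppp1r14c* (0.95), and *Sftpc* most like *Slc34a2* (0.97), *Egfl6* (0.96), and *Trpv6* (0.95). *Sftpd* was most like the mucin gene *Muc1* (0.95), *Sftpb* (0.94), and *Atp6v1c2* (0.94). Because *Ppp1r14c*, *Egfl6*, and *Muc1* were among the markers that named the AT2-like cells, their likeness is partly built in. *Lamp3* followed *Sftpc* (0.94), *Snhg11* (0.91), and the desaturase gene *Scd1* (0.91). *Abca3* and *Ctsh* were less like any gene. *Abca3* was nearest *Sftpb* (0.88), *Slc31a1* (0.87), and *Alcam* (0.85), and *Ctsh* nearest *Slc31a1* (0.84), *Lrrk2* (0.84), and *Alcam* (0.83).

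Genes that act with the members were counted from lists chosen with the set. Earlier results of these data were known at that choice, so the counts are descriptive. For this list and those of the next paragraphs, the shares of all genes called higher in AT2-like cells serve as the reference. They were 20.2% against AT1-like cells, 19.2% without the smaller AT1-like cluster, and 22.0% against club-like cells. Of 16 genes of lamellar body trafficking, 15 were tested between AT2-like and AT1-like cells, and 5 were higher, 1 lower, and 9 did not pass (edgeR, adjusted p under 0.05). *Rab27a* (log2 fold change 2.56) and *Syt7* (2.41), which act in the docking and fusion of secretory lysosomes, led the list, with the lipid flippase gene *Atp11a* (1.49) and *Adgrf5* (1.16), a receptor known to limit the surfactant pool. The list's median log2 fold change was 0.48, against 2.14 for the members and 0.16 for all genes. Without the smaller AT1-like cluster 6 were higher and 1 lower, with a median of 0.59, against 5.11 for the members and 0.13 for all genes. Against club-like cells 8 were higher and 0 lower.

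Of 21 tested genes of surfactant phospholipid synthesis, 14 were higher and 3 lower in AT2-like than in AT1-like cells, with a median of 1.5. *Scd1* (2.51) and *Fasn* (2.46) make fatty acids, *Fabp5* (2.25) binds them, and *Acsl4* (2.21) activates them. The counts were the same without the smaller AT1-like cluster, with a median of 2.37. Against club-like cells 16 were higher and 1 lower. Of 11 transcription factors known to act on surfactant genes, 4 were higher and 2 lower in AT2-like than in AT1-like cells, including *Etv5* (2.36), *Cebpa* (2.15), and *Stat3* (0.86) above and *Gata6* (-1.09) below. Without the smaller cluster 4 were again higher and 2 lower, and the NKX2-1 gene did not pass (0.81, edgeR adjusted p = 0.0674). Against club-like cells 7 were higher and 0 lower, with the NKX2-1 gene at 1.64.

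Of 14 other cathepsins and cystatins, 2 were higher and 2 lower in AT2-like than in AT1-like cells, with a median log2 fold change of 0.19, near that of all genes. *Ctsc* (2.47) was the largest of them, above *Ctsh* at 0.88, and *Ctsf* (-1.32) and *Ctsl* (-1.31) were lower. Without the smaller AT1-like cluster 3 were higher and 3 lower, and the median turned to -0.24. Against club-like cells 4 were higher and 1, *Ctsk* (-5.04), lower, beside 22.0% of all genes higher.

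Alveolar macrophages take up and break down surfactant, and 11 genes of this turnover were compared in the 69 alveolar macrophage-like cells. Of these, 10 were higher than in the background as defined, where 14.2% of all genes were higher. *Msr1* (8.05), *Marco* (7.43), *Lpl* (6.75), and *Pparg* (5.79) led, and 1 gene, *Abca1* (log2 fold change -1.47), was lower. Against T-cell-like cells 10 were higher, 0 lower, and 1 did not pass. No count against B-cell-like clusters alone is given for this list. The genes were listed for their known role in macrophages, so the counts are a description. None of the members was called higher in alveolar macrophage-like cells than in the background, as defined or of B-cell-like clusters alone. The proteases *Napsa* and *Ctsh* were higher only against T-cell-like cells. *Sftpc* was at 220.0 to 407.7 CPM, overlapping the 202.6 to 493.5 CPM of B-cell-like cells, so *Sftpc* above the level of B-cell-like cells was not detectable in these cells at this depth.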

How the data were processed

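Raw UMI counts per gene and cell, as deposited by the authors without normalization, were used from 3 libraries of P14 lung. The authors made 10x 3′ v3 libraries, and the submitters' processing notes name Cell Ranger 3.0.2 and mm10. The annotation and the use of strand in counting are not given in the sources used here. The totals per library (22476491 to 25192427 UMIs) limit the precision of low levels, which are counts of a few UMIs.

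Cells under 200 genes or over 20% mitochondrial UMIs were dropped (2002 of 9644), and the rest were normalized with SCTransform (sctransform 0.4.2), and clustered with Seurat 5.3.0 in R 4.3.3, with the members and the listed genes left out. Clusters were named from fixed markers as the best of the types by mean log2 fold over other cells. Named clusters of low depth were kept apart, and clusters without a clear best type stayed unnamed. Doublets were marked with the scrublet function of scanpy 1.11.5 (Python 3.11.15) and kept. In mice 2, 3, and 4, 46, 54, and 19 cells were marked. Where its automatic threshold marked under 0.5% of a library, the highest scores were taken at 0.8% per 1000 cells. This applied to mice 2 and 3, and the automatic threshold was kept for mouse 4. Shares of marked doublets are therefore not comparable between mice.

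UMIs were summed per mouse and type where a mouse had at least 10 cells of it, and cells with at least 3 *Cd79a* and *Cd79b* UMIs formed the background and entered no other sum. The sums were fitted together with edgeR 4.0.16 (quasi-likelihood test, TMM, filterByExpr, Benjamini-Hochberg adjustment over all genes, threshold 0.05). A 3-against-3 exact permutation test cannot go below p = 0.1 and was not used. In simulated counts in which known genes were shifted by 2 log2 units, the test recovered 100% of the shifted genes for AT2-like against AT1-like cells (11623 genes) and 96.5% for club-like cells against the background (11541 genes). The counts were drawn with the spread estimated by the fit, and genes of the lowest levels were not shifted. Free RNA and mixed clusters were not simulated. The shares therefore check the procedure and do not give its power for the members. Shares of cells with a UMI were also taken after each cell was thinned to 1000 UMIs.

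All sums of a mouse share the animal, which pairs them. Their deviations from the type means correlated with r from -0.05 to 0.44 (median 0.04, 198 pairs, 7263 genes), and a blocked fit by mouse was run as an alternative. The main test had no block, since the study states no test for these data.

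The members and gene lists were chosen with earlier results of these data known. The genes named are the members, up to 4 genes of each list with the largest change among those that passed, the markers, and the 3 genes most like each member over the sums. *Ctsk*, the NKX2-1 gene, and the macrophage genes fall outside this rule and were named after their values were seen. The alternatives were DESeq2 1.42.0, no TMM, no filter on low counts, other filters on cells, no doublets, log-normalization, resolutions of 0.4 and 1.2, the members kept for clustering, B-cell-like clusters as background, a block by mouse, and omission of single mice. The T-cell-like comparison, the AT1-like cells without the cluster of high UMI counts, and the count of cells with lymphatic markers were chosen later, with the data in view.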

Additional observations from a re-analysis of the deposited data

Results flagged for a closer look

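The 2002 cells left out by the filter, 1140 for over 20% mitochondrial UMIs and 862 for fewer than 200 genes, also held UMIs of all 9 members, and they enter no comparison above. They had 36634 *Sftpc*, 2262 *Sftpa1*, 2850 *Sftpb*, and 901 *Sftpd* UMIs. Of the membrane proteins they had 760 *Abca3*, 2082 *Slc34a2*, and 334 *Lamp3* UMIs, and of the proteases 1299 *Napsa* and 716 *Ctsh* UMIs. They are listed because these UMIs lie in cells outside the comparisons, with totals above the 3 UMIs that a count of 0 allows, and nothing more was tested on them. The kept cells held 97.2% (*Ctsh*) to 99.1% (*Sftpa1*) of each member's UMIs. Most of the left-out *Sftpc* UMIs, 34286, were in cells over the mitochondrial limit, of which 46 had at least 100 *Sftpc* UMIs, while the median of these 1140 cells was 2 UMIs. In the 862 cells with few genes, 0 cells had 100 or more *Sftpc* UMIs and the median was 2 as well.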

How the results depend on the processing

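All 9 members stayed higher in AT2-like than in AT1-like and in club-like cells by fitted log2 fold change under all alternatives that gave the comparison. The stricter filter gave none for club-like cells. The order of AT1-like and club-like cells turned for *Sftpa1*, *Sftpb*, *Sftpd*, and *Abca3* without the AT1-like cluster of high UMI counts. The count of members higher in AT2-like than in AT1-like cells (8) was 3 to 9 when 1 mouse was left out. It was 3 without mouse 2, where 1247 of 11508 genes were higher, against 2390 of 11841 with all mice. The count over club-like cells (9) was 8 to 9. With the mouse as a replicate block these counts were 8 and 9, and the block changed 4 other counts by 1: AT1-like cells over the background went from 6 to 7, club-like cells from 0 to 1, and, over T-cell-like cells, dendritic-like cells went from 5 to 4 and stromal cells from 4 to 3. The share of the members' UMIs in AT2-like cells (92.9%) was 92.2 to 93.9% without 1 mouse, 90.3% with no filter on cells, 89.6% with a stricter filter (500 genes, 10% mitochondrial UMIs), 89.0% with log-normalization, and 90.6% at a resolution of 0.4. Thinning to 1000 UMIs changed shares of cells as given beside them. Ciliated-like cells formed no cluster, so no value could be given for them. Alveolar and interstitial macrophage-like cells gave no comparison with the background under the stricter filter, log-normalization, or a resolution of 0.4. Dendritic-like cells gave none with no filter on cells or with the stricter filter.

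Counts over the background depended on which cells formed it. In AT1-like cells the count (6) was 4 to 6 without 1 mouse 8 with B-cell-like clusters as background, 5 in the combination with no doublets and no cluster of high UMI counts, and 1 without that cluster alone, where *Slc34a2* (-0.74), *Sftpb* (-1.46), *Sftpc* (-1.15), and *Lamp3* (-1.54) turned negative. In club-like cells (0) it was 2 with no filter on low counts, 1 with the mouse as a block, with log-normalization, at a resolution of 1.2, and with the members kept for clustering, and 7 with the background of B-cell-like clusters, alone or in the combination. For dendritic-like, endothelial, and stromal cells (0 each) that background gave 4, 2, and 4, and the combination 1 each, as for interstitial macrophage-like cells. Without 1 mouse the counts stayed at 0 in club-like cells and in the 5 types outside the epithelium.

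Over T-cell-like cells, the count of AT1-like cells (9) was 8 without the cluster of high UMI counts and 7 in the combination. The count of dendritic-like cells (5) was 3 without doublets, with log-normalization, with the members kept for clustering, and in the combination, and 2 to 7 without 1 mouse. *Sftpc* there was -0.28 (without mouse 4) to 3.84 (without mouse 2) when 1 mouse was left out, -0.13 without doublets, -0.17 with log-normalization, and -0.13 in the combination, and *Sftpd* was -0.0026 with log-normalization. That of stromal cells (4) was 7 with no filter on low counts, 2 at a resolution of 0.4 and with the members kept for clustering, 1 without doublets and in the combination, and 1 to 4 without 1 mouse. Without 1 mouse, the counts were 1 to 3 in ECs, 2 to 3 in interstitial macrophage-like, 7 to 9 in club-like, and 2 in alveolar macrophage-like cells. For the background over T-cell-like cells, 9 fell to 2 with B-cell-like clusters and in the combination, where *Sftpb* was -0.16 and -0.14 and *Lamp3* -0.0067 in the combination. The cause of these differences was not tested. The background of B-cell-like clusters leaves out the 89 cells that held 97.3% of the *Sftpc* UMIs of the background as defined. Club-like values rest on 12 to 19 cells per mouse, and values under about 10 CPM on a few UMIs.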

Other observations

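Among the clusters left out of the comparisons, 1 low-depth cluster with club markers had 46 of its 52 cells in mouse 4 and a median of 555.5 UMIs. In mouse 4 its *Sftpc* level was 28950 CPM, with a median of 18 UMIs per cell, against a median of 1 to 2 in most types outside the epithelium. Its *Sftpa1* level was 2470 CPM, *Sftpb* 2161 CPM, and *Slc34a2* 1475 CPM. At this depth a single UMI stands for many CPM, and the other 2 libraries had 2 and 4 such cells, so the values have no replicate check.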
